A study of Mus musculus with 3 samples.

Results

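Regulatory T cells among the tumor-infiltrating lymphocytes (TILs) were taken here as single cells with at least 2 UMIs (unique molecular identifiers, each counting 1 captured transcript) of *Cd3e*, at least 1 of *Foxp3* and none of *Cd8b1* or *Ncr1*, and they numbered 1357 of the 31943 cells that passed the filters. A cell passed with between 1000 and 6000 detected genes and a mitochondrial share below 7.5%. The library Kaede-green 1 gave 316 of the 1357 cells, Kaede-green 2 gave 504, and 537 were KR+ cells of the library Kaede-red. No cell barcode was shared between libraries among these cells. Over all cells kept, 17 to 27 barcodes were shared between any pair of libraries.

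By the labels, the TILs came from subcutaneous MC38-Ova tumors, an MC38 colon carcinoma line carrying ovalbumin. The paper names MC38 tumors and no isotype treatment for this experiment, and the labels are followed here. The mice were wild-type C57BL/6 with the Kaede transgene, whose fluorescent protein turns irreversibly from green to red in violet light. Each mouse was injected with 250000 tumor cells, the tumor was photoconverted on day 13 and taken on day 15, 48 h later, and the labels give isotype control treatment for all 3 libraries, so no untreated or treated arm stood beside them. Kaede Green+ (KG+) cells had entered the tumor within the 48 h and Kaede Red+ (KR+) cells had been in it since photoconversion. KG+ cells made the 2 libraries that the labels call biological replicates, KR+ cells made 1 library, and the number of animals behind each is not given in the sources used here. The sort took live CD45+ cells and left out myeloid cells by CD11b, and color marks the time since photoconversion and not the age of a cell or its site of origin. Summed over all deposited barcodes, Kaede-green 1 held 87193225 UMIs, Kaede-green 2 held 129438292 and the Kaede-red library 175848894.

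Regulatory T cells are CD4+ T cells that hold other immune cells in check, and the transcription factor FOXP3 keeps their program in place. They take up IL-2 through the high-affinity receptor chain CD25 (*Il2ra*), withdraw costimulation from antigen-presenting cells through CTLA-4, and release or activate inhibitory cytokines such as IL-10 and TGF-β. In tumors they often make up a large part of the CD4+ T cells and are known for surface receptors such as CCR8, ICOS and the TNF receptor family members OX40, GITR and 4-1BB.

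Regulatory T cells made up 6.51% (95% exact Clopper-Pearson interval 5.83 to 7.24) of the cells with at least 2 *Cd3e* UMIs in Kaede-green 1, while Kaede-green 2 had 8.33% (7.65 to 9.06) and Kaede-red 8.39% (7.72 to 9.09). The Kaede-red share lay within the interval of Kaede-green 2 and above that of Kaede-green 1, and both Kaede-green shares were below it. *Foxp3*-zero CD4 T cells, defined by at least 2 UMIs of *Cd3e*, at least 1 of *Cd4* and none of *Foxp3*, *Cd8a*, *Cd8b1* or *Ncr1*, made up 7.31% (6.60 to 8.08), 4.63% (4.11 to 5.19) and 2.62% (2.25 to 3.04) in the same order. These 803 cells (355, 280 and 168) were the closest comparison in the series, and the number of regulatory T cells per *Foxp3*-zero CD4 T cell was 0.890, 1.80 and 3.20 in that order. That number includes regulatory T cells without a *Cd4* UMI, which the comparison cells needed. Regulatory T cells with a *Cd4* UMI and no *Cd8a* UMI numbered 197, 252 and 319. They were fewer than the *Foxp3*-zero CD4 T cells in both Kaede-green libraries and more in Kaede-red. The sort left out part of the CD45+ cells, so shares are given among T cells, and with 1 Kaede-red library the difference between colors has no replicate check. Intervals cover counting error only.

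**Figure D1:**
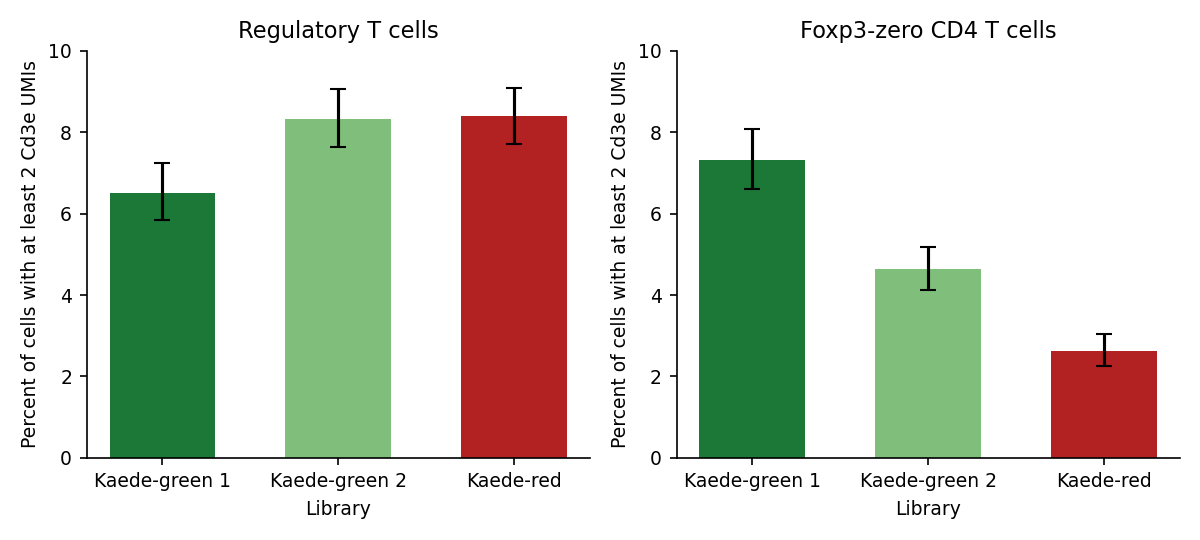
Percent of cells with at least 2 *Cd3e* UMIs that were regulatory T cells (left) or *Foxp3*-zero CD4 T cells (right) in each library; bars are shares and whiskers exact 95% intervals that cover counting error only. The share of regulatory T cells was 8.33% in Kaede-green 2 and 8.39% in Kaede-red, while *Foxp3*-zero CD4 T cells ran from 7.31% to 2.62%.

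*Foxp3* chose the cells, so its level is a description. The median regulatory T cell held 3 *Foxp3* UMIs in each library and the highest held 32, with 291 cells at 1 UMI, 447 at 2 to 3 and 619 at 4 or more. A *Foxp3* UMI also appeared in 0.142%, 2.63% and 0.864% of cells of the NK gate (at least 2 *Ncr1* UMIs and no *Cd3e*), with libraries in the same order, at median depths of 6497, 8760 and 19081 UMIs, against 8699, 9252 and 6678 in regulatory T cells. NK cells should lack *Foxp3*, and these shares show how often its UMIs appeared in another cell type. The source of these UMIs was not tested. Because the NK gate excludes cells with *Cd3e*, the shares need not hold for the regulatory T cells. *Cd4* was not part of the gate, and a *Cd4* UMI was found in 63.6%, 64.7% and 65.7% of the regulatory T cells. *Cd8a*, also outside the gate, was found in 2.22%, 20.8% and 11.2% of them, against 4.33%, 20.6% and 12.3% in the NK gate of the same libraries.

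Cells just inside and just outside the *Foxp3* threshold differed in the other markers of the type. In the summed cells with exactly 1 *Foxp3* UMI, *Il2ra* stood at 511 ± 113 CPM (UMIs of the gene in 1000000 UMIs of the summed cells, SD, n = 3 libraries), *Ikzf2* at 1391 ± 390 and *Ctla4* at 1205 ± 439. With 4 or more *Foxp3* UMIs the values were 645 ± 54.7, 1426 ± 329 and 1305 ± 107. The 4063 cells that met every other condition but held no *Foxp3* UMI had 82.0 ± 23.6 of *Il2ra*, 679 ± 72.0 of *Ikzf2* and 156 ± 25.1 of *Ctla4*. *Trdc*, the constant gene of the δ chain of γδ T cells, stood at 437 ± 178 in those cells, at 118 ± 7.28 in the cells with 1 *Foxp3* UMI and at 18.1 ± 10.6 in cells with 4 or more, so that the lineage marker moved with the *Foxp3* count; its part in the other values was not tested.

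Levels below are in CPM of the summed cells of a gate, given in the order Kaede-green 1, Kaede-green 2 and Kaede-red. In such sums, more cells with a transcript and more transcript per cell cannot be told apart. Regulatory T cells and *Foxp3*-zero CD4 T cells of the same library were compared over the 3 libraries with edgeR's quasi-likelihood test, two-sided, with the library as a block and Benjamini-Hochberg adjustment over 9569 genes. The adjusted p-values weigh the difference between the gates against how that difference varied over these 3 libraries. At an adjusted p under 0.05, 1042 genes (10.9%) were higher and 1108 (11.6%) lower in regulatory T cells, and the median log2 fold change of all genes was 0.00. Both counts depended on single libraries and on the fit: without Kaede-green 1 they were 517 and 675, without Kaede-green 2 523 and 542, and without Kaede-red 1571 and 1572. DESeq2 called 509 and 595, cells thinned to 2000 UMIs gave 516 and 623, and the fit with no replicate block called 634 higher. Named genes whose calls ended in these fits are listed in the last section.

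The markers *Il2ra*, *Ikzf2*, *Ctla4* and *Lrrc32* were each higher in regulatory T cells. The lists were chosen with earlier results of these data known, so their counts are a description and no independent check of the label. Of the 15 genes of the regulatory T cell identity list that were tested, 12 were higher and 2 lower (*Nrp1* and *Nt5e*), with a median log2 fold change of 1.23 against 0.00 for all genes. *Il2ra* (chr2:11642807-11693193, GRCm38), encoding the IL-2 receptor α chain, was at 616, 539 and 687 CPM in regulatory T cells and 69.4, 125 and 216 in *Foxp3*-zero CD4 T cells, a log2 fold change of 2.23 ± 0.22 (SE, adjusted p = 0.000109 by edgeR). *Ikzf2* (chr1:69531214-69687245), the Ikaros-family factor Helios, was at 1338, 1219.7 and 1784 against 242, 419.9 and 764 CPM (1.68 ± 0.18, adjusted p = 0.000204 by edgeR). In each of these genes the groups did not overlap, and the *Foxp3*-zero CD4 T cells of Kaede-red held the highest values of their group.

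*Ctla4* (chr1:60887000-60915832), the inhibitory counterpart of CD28, was at 1397, 1288 and 1252 CPM against 409, 519 and 596 (log2 fold change 1.33 ± 0.12, adjusted p = 8.46e-05 by edgeR), and its regulatory T cell values were nearly level across libraries. *Lrrc32* (chr7:98489283-98502181), encoding GARP, which docks latent TGF-β on the cell surface, was at 67.9, 60.5 and 83.3 against 12.1, 16.3 and 32.3 CPM (1.84 ± 0.20, adjusted p = 0.000165 by edgeR). *Ikzf4*, the Ikaros-family factor Eos and a partner of FOXP3 in repression, was at 95.4, 86.2 and 108 against 16.5, 20.7 and 38.6 CPM. The groups were apart for all 3 genes. The other Ikaros factors did not follow Helios and Eos: *Ikzf1* had a log2 fold change of -0.54 ± 0.15 that passed the test (adjusted p = 0.0274 by edgeR) with all libraries but not without Kaede-green 1 (-0.34) or Kaede-green 2 (-0.66). *Ikzf5* was lower (-0.49 ± 0.15, adjusted p = 0.0415 by edgeR), at 24.8, 31.3 and 23.7 against 33, 38.4 and 37.7 CPM, with a call that was lost without any 1 library, and *Ikzf3* did not pass the test (0.35 ± 0.20). Reads of *Ikzf2*, *Il2ra* and *Ctla4* can be shared with unnamed transcripts or a pseudogene that overlap them on the same strand.

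**Figure D2:**
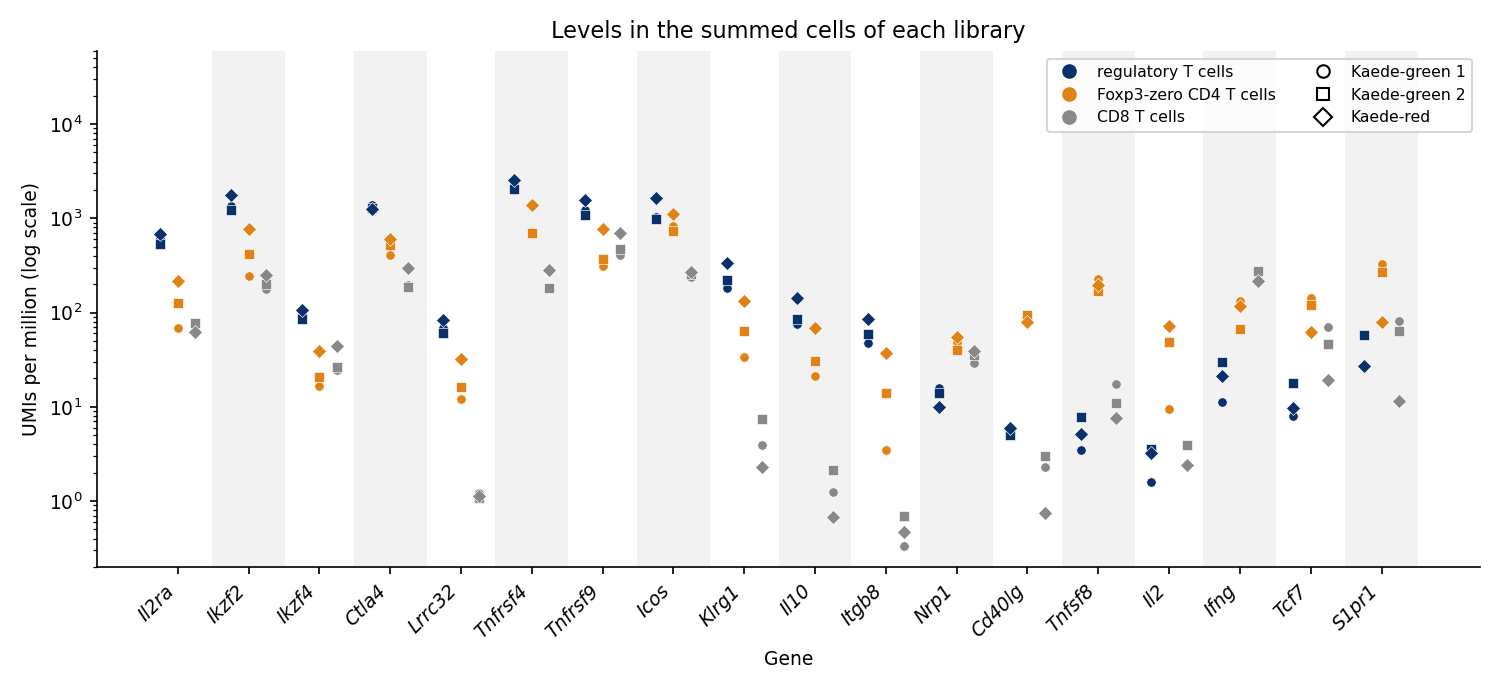
Level of 18 genes (CPM, log axis) in the summed regulatory T cells, *Foxp3*-zero CD4 T cells and CD8 T cells of each library; each point is 1 library and symbols mark the library. *Il2ra*, *Ikzf2*, *Ikzf4*, *Ctla4* and *Lrrc32* were higher in regulatory T cells than in both other gates in every library, and *Cd40lg*, *Tnfsf8* and *Il2* lower than in *Foxp3*-zero CD4 T cells.

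Among the remaining identity genes, the TNF receptor family members OX40 and GITR were higher. *Tnfrsf4* (OX40) was at 2402, 2047 and 2535 CPM against 718, 695 and 1392, and *Tnfrsf18* (GITR) at 1195, 1116 and 1590.2 against 610.1, 589.7 and 1025, with log2 fold changes of 1.33 and 0.78. *Swap70*, a guanine nucleotide exchange factor for Rac, had 1.54, *Izumo1r*, encoding the folate-receptor family protein FR4, 1.14, *Entpd1*, encoding the ATP-cleaving ectoenzyme CD39, 1.14 and *Tigit*, an inhibitory receptor for nectin-family ligands, 1.23. Not all identity genes were higher. *Nrp1*, the semaphorin receptor neuropilin-1, often used to mark thymus-derived regulatory T cells, was lower, at 15.9, 14 and 10.0 against 49, 39.7 and 54.8 CPM (log2 fold change -1.87 ± 0.20, adjusted p = 0.000156 by edgeR). *Nt5e*, encoding the adenosine-forming ectoenzyme CD73, was also lower (-0.53 ± 0.14, adjusted p = 0.0202 by edgeR), a call that did not pass without Kaede-green 1 (-0.44) or without Kaede-green 2 (-0.45). *Il2rb*, the shared β chain of the IL-2 and IL-15 receptors, was at 372, 392 and 439.6 against 373, 388 and 401 CPM and was not called. The comparison cells were defined by the absence of *Foxp3* UMIs, and many of them held an *Ikzf2* UMI. Leaving those out kept 231 of 355, 150 of 280 and 84 of 168 comparison cells in Kaede-green 1, Kaede-green 2 and Kaede-red. Against the cells kept, 11 of the 14 other identity genes tested were higher and 1 lower, *Ikzf2* itself being set by that choice.

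The sequences just upstream of genes of these lists were read for short motifs, because many of the genes were higher together. RefSeq windows of 250 bases before the start site were found for 41 of 57 genes of the identity, suppression and tumor-effector lists with *Foxp3* (51 windows, GRCm38.p6). On either strand, the forkhead motif TGTTTAC was in windows of 3 of the 41 genes (7.32%, against 3.54% of all 27025 genes with a window), the STAT motif TTCNNNGAA in those of 6 (14.6%, against 8.13%) and the AP-1 motif TGANTCA in those of 7 (17.1%, against 7.82%). Some windows of 1 gene overlap. The 4 windows below are those of the gene that defines the cells, of its best-known surface marker, and of 2 genes with the forkhead letters; capitals mark the matches. That of *Foxp3* (chrX:7580233-7580482, plus strand) lies inside an exon of the noncoding RNA *Flicr* and holds the STAT letters 139 bases before the start, while a second *Foxp3* window (chrX:7579426-7579675), not printed, holds none of the motifs. That of *Il2ra* (chr2:11642542-11642791, plus strand) holds none of the motifs. That of *Swap70* (chr7:110221453-110221702, plus strand) holds the forkhead letters 107 bases before the start. That of *Prdm1* (chr10:44458749-44458998, minus strand) holds the forkhead letters on the opposite strand at 231 bases and the AP-1 letters at 48.
Foxp3: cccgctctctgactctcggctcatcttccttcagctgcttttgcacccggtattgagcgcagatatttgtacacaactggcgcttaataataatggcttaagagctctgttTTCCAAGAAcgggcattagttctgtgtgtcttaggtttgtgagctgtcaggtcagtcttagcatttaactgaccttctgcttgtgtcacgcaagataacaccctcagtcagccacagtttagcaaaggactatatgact
Il2ra: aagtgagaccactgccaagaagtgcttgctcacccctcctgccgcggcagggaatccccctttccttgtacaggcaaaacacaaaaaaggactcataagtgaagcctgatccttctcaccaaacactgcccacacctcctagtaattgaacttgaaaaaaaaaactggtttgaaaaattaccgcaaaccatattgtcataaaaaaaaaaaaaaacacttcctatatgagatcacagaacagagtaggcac
Swap70: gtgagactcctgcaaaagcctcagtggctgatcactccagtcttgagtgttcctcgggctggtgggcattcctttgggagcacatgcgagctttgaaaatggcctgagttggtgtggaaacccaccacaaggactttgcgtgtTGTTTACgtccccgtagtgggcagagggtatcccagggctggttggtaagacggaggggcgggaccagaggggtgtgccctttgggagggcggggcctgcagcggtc
Prdm1: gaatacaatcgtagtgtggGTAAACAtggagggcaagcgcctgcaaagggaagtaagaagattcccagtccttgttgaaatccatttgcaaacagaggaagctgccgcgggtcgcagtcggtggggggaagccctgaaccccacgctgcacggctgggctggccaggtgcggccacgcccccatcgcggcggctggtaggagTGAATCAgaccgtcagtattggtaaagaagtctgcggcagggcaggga

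Genes of suppressive function were higher as a group. Of 14 tested genes, 12 were higher and 2 were not called, with a median log2 fold change of 1.24. *Il10*, encoding the inhibitory cytokine IL-10, was at 75.6, 85.3 and 144 CPM against 21.2, 30.9 and 69.1 (log2 fold change 1.37 ± 0.16, adjusted p = 0.000298 by edgeR). *Itgb8*, the integrin chain that frees active TGF-β from its latent form, was at 47.6, 59 and 86.3 against 3.47, 14.1 and 36.8 CPM (2.01 ± 0.30, adjusted p = 0.00117 by edgeR). *Ebi3*, a subunit of IL-35 and IL-27, was at 60.3, 64.5 and 78.6 against 11.7, 16.3 and 44.9 CPM. For these 3 genes every regulatory T cell value was above every value of the comparison cells, and in both gates Kaede-red held the highest level.

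*Areg*, the epidermal growth factor receptor ligand amphiregulin, was at 449, 619.5 and 634 CPM against 88.9, 107 and 354 (log2 fold change 1.83), and *Gzmb*, the cytotoxic protease granzyme B, at 2706, 2456 and 3961 against 757, 1111 and 1705 (1.34). *Il1rn*, encoding the IL-1 receptor antagonist, had the largest log2 fold change of all genes that met the naming rule, 3.26 ± 0.37, at 22.2, 16.9 and 21.6 against 0.867, 2.65 and 2.69 CPM (adjusted p = 0.000219 by edgeR). *Il1r2*, the IL-1 decoy receptor, passed the test at 1.53 ± 0.44 (adjusted p = 0.0300 by edgeR), but its values of 182, 108 and 121 against 18.6, 30.4 and 121 CPM met in Kaede-red. *Fgl2*, a secreted inhibitory fibrinogen-like protein, had 0.97 and *Lag3*, an inhibitory receptor for MHC class II, 1.15. The calls of *Il1r2* and *Lag3* were lost with DESeq2 and with no replicate block. That of *Il1r2* was also lost without cells holding *Mki67* or *Top2a*. The 2 genes without a call were *Tgfb1*, encoding TGF-β1, at 266, 232 and 278 against 239, 208 and 267 CPM, and *Penk*, the precursor of enkephalin peptides, at 240.2, 256 and 157 against 124, 125 and 490.3. *Penk* was above the comparison cells in both Kaede-green libraries and below them in Kaede-red, and it passed the test without Kaede-red (0.93) and, in an alternative chosen after seeing the data, against comparison cells without *Ikzf2* (2.10).

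Of 23 genes of the list for effector regulatory T cells in tumors, 15 were higher and 3 lower, with a median of 0.85. *Klrg1* (chr6:122270596-122282882), a cadherin-binding receptor of differentiated lymphocytes, was at 182, 219 and 337 CPM against 33.8, 63.1 and 133 (log2 fold change 1.77 ± 0.18, adjusted p = 0.000118 by edgeR). *Tnfrsf9* (4-1BB) was at 1214, 1092 and 1565 against 311, 374 and 771 CPM, a log2 fold change of 1.45. *Itgae* (CD103), an integrin that binds E-cadherin, had 1.93, *Havcr2*, the inhibitory receptor TIM-3, 1.92 and *Cd81*, a tetraspanin, 2.35. These 5 genes were higher in each library, as was *Il1rl1* (1.55), the IL-33 receptor ST2 of tissue regulatory T cells. Among transcription factors, *Maf* (0.65), *Batf* (0.79) and *Prdm1* (0.85, or 0.63 without Kaede-green 2, when it did not pass) were higher. *Icos*, a CD28-family costimulator, differed little, at 1036, 992 and 1655 against 836, 729 and 1117 CPM (0.38), and did not pass without Kaede-green 2 (0.37). *Bcl6*, the factor of follicular T cells, was lower (-1.13), as were *Pdcd1* (-0.74), encoding PD-1, and *Cxcr3* (-0.66), although *Cxcr3* did not pass without Kaede-green 2 (-0.61). The *Bcl6* call was lost with DESeq2, with no replicate block and without cells holding *Mki67* or *Top2a*.

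Chemokine receptors split. Of 11 tested, 4 were higher and 3 lower. *Ccr2* was at 346, 379 and 522 CPM against 99.3, 167 and 224 (log2 fold change 1.34 ± 0.13, adjusted p = 0.000112 by edgeR) and *Ccr1* had 1.42, both receptors for inflammatory chemokines. *Ccr8*, the receptor for CCL1, was at 32.2, 23.5 and 25.4 against 14.3, 9.26 and 21.6 CPM (0.89 ± 0.23, adjusted p = 0.0203 by edgeR), a call that did not pass without Kaede-green 1 (0.75) or Kaede-green 2 (0.67). *Cxcr4*, the CXCL12 receptor, was lower (-1.21). In the list of TNF receptors and NF-κB genes, 6 of 16 were higher, with a median of 0.22. All 6 were receptors or their adaptor, namely *Tnfrsf4*, *Tnfrsf9*, *Tnfrsf18*, *Tnfrsf1b* (TNFR2, 0.44), *Cd27* (0.76) and *Traf1* (0.36), and no NF-κB subunit was called. *Tnfrsf1b* and *Traf1* did not pass without Kaede-green 1 (0.40 and 0.28) or Kaede-green 2 (0.49 and 0.33).

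Effector molecules of conventional T cells were lower as a group, 11 of 13 tested with 1 higher and a median of -1.60. The extreme of all genes that met the naming rule was *Tnfsf8* (chr4:63831308-63861347), the ligand of CD30, at 3.44, 7.83 and 5.12 CPM in regulatory T cells against 228, 169.8 and 195 in *Foxp3*-zero CD4 T cells (log2 fold change -5.14 ± 0.24, adjusted p = 2.70e-06 by edgeR). *Cd40lg* (chrX:57212143-57224042), the helper ligand CD40L, was at 5.29, 5.07 and 5.98 against 88.9, 93.5 and 79 CPM (-4.06 ± 0.16, adjusted p = 1.32e-06 by edgeR). *Il2* was at 1.59, 3.53 and 3.20 against 9.54, 48.5 and 71.8 CPM (-3.92 ± 0.29). The values of the comparison cells were steady across libraries for *Tnfsf8* and *Cd40lg*, but for *Il2* they were low in Kaede-green 1. *Tnfsf11*, encoding RANKL, had a log2 fold change of -3.39, *Ifng*, encoding interferon-γ, -2.35, *Fasl*, the death ligand, -2.18 and *Il17a* -1.60. The gene that was higher in this list was *Id2* (0.52), an inhibitor of E proteins, which did not pass without Kaede-green 1 (0.31) or Kaede-green 2 (0.42).

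Genes of naive and recirculating T cells were also lower, 7 of 10 tested with 1 higher and a median of -1.0. *Tcf7*, the factor TCF-1 of naive and memory T cells, was at 7.93, 17.8 and 9.82 CPM against 144, 119 and 62 (log2 fold change -3.20 ± 0.25, adjusted p = 3.35e-05 by edgeR). *S1pr1*, the sphingosine phosphate receptor that lets T cells leave tissue, was at 58.4, 58.4 and 26.9 against 327, 268 and 79.9 CPM (-2.20 ± 0.16). Both were lowest in Kaede-red among the *Foxp3*-zero CD4 T cells. *Lef1* (-1.63), *Klf2* (-1.35) and *Bach2* (-2.03), factors of the same state, were lower. *Ccr7*, a lymph node homing receptor, was at 216, 245 and 95 against 219, 236 and 153 CPM and was not called.

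Survival and signaling genes downstream of the cytokine receptors were mixed. In the IL-2 and STAT5 list, 2 of 13 genes were higher, *Il2ra* and *Jak3* (0.49), and 5 lower, with a median of -0.28; *Jak3* did not pass without Kaede-green 1 (0.47) or Kaede-green 2 (0.54). *Bcl2*, the survival protein induced by IL-2 and IL-7, was at 28.8, 31.6 and 27.5 CPM against 150.0, 115 and 91.6 (-2.05 ± 0.16, adjusted p = 2.92e-05 by edgeR), *Socs3*, a feedback inhibitor of cytokine signaling, had -1.53 and *Stat5b* -0.85. Of 14 costimulatory and checkpoint receptors, 6 were higher and 5 lower. The CD155 receptors divided: *Tigit* was higher, while *Cd226* (-1.87 ± 0.14, adjusted p = 2.92e-05 by edgeR), its activating competitor, and *Cd96* (-1.95 ± 0.20, adjusted p = 0.000131) were lower.

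Immediate early and activation genes were mostly lower, 10 of 15 tested, with a median of -0.70. *Egr1* was at 38.1, 35 and 54 CPM against 188, 76.7 and 223 (log2 fold change -1.89 ± 0.20), and *Cd69*, which retains activated cells in tissue, at 261, 184 and 247 against 625, 374 and 468 (-1.13 ± 0.11). The gene that was higher in this list was *Myc* (1.59 ± 0.24), the growth factor-driven regulator of metabolism. It was lowest in Kaede-red in both gates, and its call was lost with no replicate block. Tissue dissociation can induce such genes, and of 9 heat shock and chaperone genes 4 were lower, led by *Hspa1b* (-2.25 ± 0.15); its part in the difference was not tested.

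Cell-cycle genes were higher, 17 of 19 tested, with a median of 1.14. *Mki67* was at 126, 125 and 73.2 CPM against 33.8, 55.6 and 34.1 (log2 fold change 1.35 ± 0.17, adjusted p = 0.000375 by edgeR), and *Cdk1*, the kinase that drives entry into mitosis, had 1.59. A UMI of *Mki67* or *Top2a* was present in 35.4%, 44.2% and 31.1% of regulatory T cells, and in 16.6%, 26.8% and 20.8% of *Foxp3*-zero CD4 T cells, at the lower median depth of 5603, 6770 and 5556 UMIs. With those cells left out of both gates, which sets these 2 genes to 0, 12 genes of the list could be tested, of which 1 was higher and 1 lower. In the list for glycolysis and hypoxia 13 of 22 genes were higher, with a median of 0.42, among them *Slc16a3*, the lactate exporter MCT4 (1.74), *Bnip3*, a mitophagy receptor induced in hypoxia (1.86) and *Pkm*, pyruvate kinase (0.93). *Fabp5*, a fatty acid carrier, was the gene called in the lipid list of 11 (1.64). Interferon-stimulated genes were lower in 8 of 16 cases and higher in 1, *Ifi27l2a* (0.45), with *Ifit3* at 145, 149 and 155 CPM against 539, 347 and 334.

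The other genes chosen by size, not in these lists, were varied in function. Higher were *Cxcl2*, a neutrophil chemokine (3.10), *Fam83g* (3.01), *Fut7*, a fucosyltransferase (2.38), *Jdp2*, an AP-1 family repressor (2.29), *Bmyc* (2.23), the mitotic kinase gene *Aurkb* (2.13) and *Lgmn*, a lysosomal protease (2.07). Lower were *Gpm6b* (-3.94), the protease gene *Gzmk* (-3.77), *Serpinb1a*, a protease inhibitor (-3.24), *Ramp3*, a subunit of adrenomedullin receptors (-3.09), and *Tbc1d4*, a Rab GTPase-activating protein (-2.87). *Ramp3* was the best separated of these, at 62.9, 37 and 24.8 CPM against 371, 358 and 247 (adjusted p = 3.16e-06 by edgeR).

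Markers of other lineages moved with this comparison. Summed over 9 myeloid and antigen-presentation genes, the level was 958, 554 and 590 CPM in regulatory T cells and 153, 383 and 389 in *Foxp3*-zero CD4 T cells, of which *Cd74*, the MHC class II invariant chain, gave 733, 467 and 504 and 124, 254 and 338; *S100a8* was at 0 in both gates. The 6 B cell genes summed to 199, 254 and 186 against 125, 113 and 79.0 CPM, led by *Ighm* at 142, 155 and 135 against 60.7, 86 and 68.2. Summed NK genes, led by *Klrk1*, were at 83, 92.2 and 74.1 against 193, 179 and 124 CPM. With cells holding a UMI of *Cd79a*, *Lyz2*, *C1qa*, *Csf1r*, *Klrb1c*, *Trdc* or *Cpa3* left out of both gates, 12 identity and 12 suppression genes were still higher and 11 conventional effector genes lower, the counts given above.

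The comparison with CD8 T cells (at least 2 *Cd3e*, at least 1 *Cd8a* and *Cd8b1*, no *Cd4*, *Foxp3* or *Ncr1* UMI) used 8694 cells, 2175, 2853 and 3666 by library. Of 11874 genes tested in the same way, 1322 (11.1%) were higher and 1093 (9.20%) lower in regulatory T cells, and the median of all genes was -0.02. Without Kaede-green 1 the counts were 749 and 501, without Kaede-green 2 829 and 520, and without Kaede-red 2192 and 1986. The identity list had 13 of 16 genes higher, 2 lower (*Nrp1*, -1.52, and *Il2rb*, -0.53, which did not pass without Kaede-green 1, at -0.57, or Kaede-green 2, at -0.54) and a median of 1.87, and the suppression list 10 of 14 higher, 3 lower and a median of 1.84. Markers of other lineages moved here too. The 6 B cell genes summed to 199, 254 and 186 CPM in regulatory T cells against 67.0, 60.1 and 21.0 in CD8 T cells. The 9 myeloid and antigen-presentation genes summed to 958, 554 and 590 against 247, 260 and 62.6, and the 5 NK genes to 83.0, 92.2 and 74.1 against 525, 651 and 718. Their part in the difference was not tested. Of the genes higher than in CD8 T cells that met the naming rule, *Itgb8* had the largest log2 fold change. It was at 47.6, 59 and 86.3 CPM against 0.336, 0.687 and 0.466 in CD8 T cells (log2 fold change 6.89 ± 0.23, adjusted p = 0.000152 by edgeR), *Il10* at 1.26, 2.14 and 0.674 in CD8 T cells (6.16 ± 0.47), *Ebi3* at 0.588, 1.07 and 1.66 (5.78 ± 0.21) and *Lrrc32* at 1.22, 1.07 and 1.14 (5.82 ± 0.15). *Klrg1* was at 3.95, 7.37 and 2.31 CPM in CD8 T cells against 182, 219 and 337 (5.71 ± 0.47, adjusted p = 0.000766 by edgeR). At such levels in CD8 T cells a few stray transcripts weigh on the fold change.

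**Figure D3:**
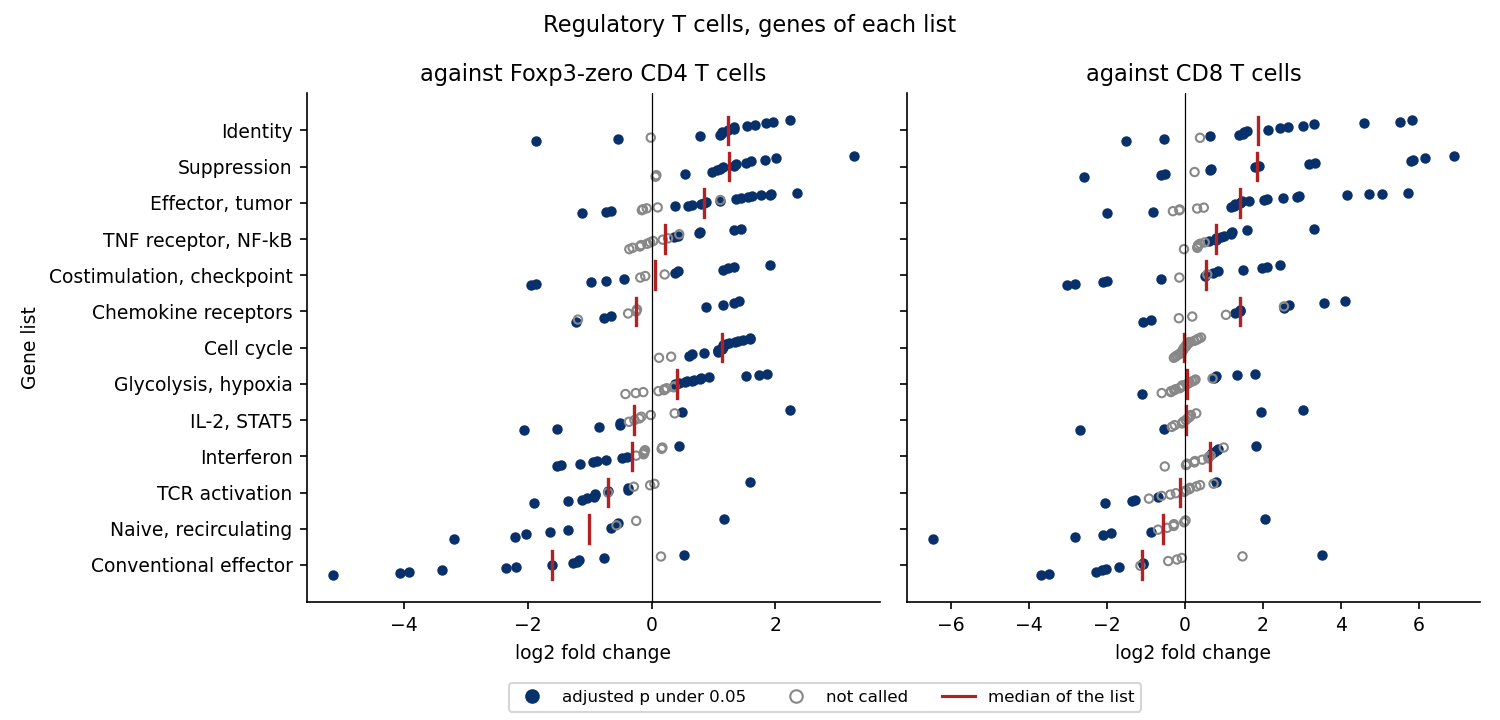
Log2 fold change of every tested gene of 13 lists in regulatory T cells against *Foxp3*-zero CD4 T cells (left) and CD8 T cells (right); filled points have an adjusted p under 0.05 (edgeR, 3 libraries), open points do not, and red lines are list medians. The identity median was 1.23 and 1.87, and the cell-cycle median 1.14 and -0.02.

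Other genes higher than in CD8 T cells were *Izumo1r* (5.52), *Maf* (5.05), the chemokine receptors *Ccr4* (4.11) and *Ccr2* (3.55), *Tnfrsf4* (3.32), *Il2ra* (3.03), *Ikzf2* (2.65), *Ctla4* (2.43) and *Icos* (2.10). *Pparg*, a nuclear receptor known from regulatory T cells of fat tissue, was at 3.17, 6.14 and 6.19 CPM against 0.0839, 0.137 and 0.0691 (5.61 ± 0.43, adjusted p = 0.000633 by edgeR), and *Il1rl1* had 4.16. By list, 7 of 13 chemokine receptors were higher and 2 lower, and 10 of 16 TNF receptor and NF-κB genes were higher. Of 14 effector genes of conventional T cells, 8 were lower, 5 were not called and 1 was higher, with a median of -1.11. The gene that was higher was *Il17a* (3.52), with a UMI in 22 regulatory T cells, and it did not pass when members needed 2 *Foxp3* UMIs (1.93). *Ifng* was lower, at 11.4, 29.6 and 21.4 against 223, 274 and 217 CPM (-3.69 ± 0.23, adjusted p = 0.000349 by edgeR), as were *Prf1*, encoding perforin, at 41.5, 75.1 and 102 against 239, 325 and 689.9 (-2.60 ± 0.16), and *Gzmf*, a granzyme, at 3.44, 12.9 and 56.6 against 597, 579 and 3902 (-6.27 ± 0.34). *Gzmb*, in contrast, was at 2706, 2456 and 3961 against 1787, 1889 and 3517 CPM and was not called (0.25 ± 0.11, adjusted p = 0.173 by edgeR), although it passed without Kaede-red (0.36). Checkpoint receptors divided, with *Pdcd1* (-1.99) and *Lag3* (-0.62) lower, *Ctla4* and *Tigit* (1.49) higher, and the *Lag3* call not passing without Kaede-green 1 (-0.61) or Kaede-green 2 (-0.51).

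By size, *Il1rn* (5.84), *Rnase4* (5.64), *Asb2* (5.53) and *Ncmap* (5.51) were also among the highest, and *Dapl1* (-6.45), *Slc17a6* (-5.55), *Wdr95* (-5.38), *Nrgn* (-5.16), *Serpine2* (-4.89), *Ifitm1* (-4.85), the chemokine gene *Ccl1* (-4.67), *Gzmk* (-4.49) and *Lcn4* (-4.48) among the lowest. In the cell-cycle list edgeR called none of the 19 genes, and none at an unadjusted p under 0.05; DESeq2 called none either. *Mki67* was at 126, 125 and 73.2 CPM in regulatory T cells and 48.2, 77.9 and 115 in CD8 T cells, above in both Kaede-green libraries and below in Kaede-red, and without Kaede-red 16 of the 19 genes were higher.

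Kaede-red and Kaede-green regulatory T cells were compared without a test, since 1 Kaede-red library leaves the spread between KR+ samples unknown. A gene was called where its level in Kaede-red was at least 2-fold from both Kaede-green libraries in the same direction, by more than these differed from each other, with at least 30 UMIs in all. By this rule 72 of 10281 genes (0.700%) were above and 138 (1.34%) below, and the median of all genes lay 0.08 above 0. With cells holding *Mki67* or *Top2a* left out the rule called 28 above and 62 below, of which 5 and 19 were among those genes, and with 1 Kaede-green library left out it called 282 to 311 above and 256 to 282 below. Of 15 identity genes 13 were above both Kaede-green libraries and 2 below (all genes, 45.8% and 31.3%), with a median log2 ratio of 0.27, and the 2-fold rule called none of them, and none under any alternative run. *Ctla4* was at 1397, 1288 and 1252 CPM and *Ikzf2* at 1338, 1219.7 and 1784.

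Of 14 suppression genes 10 were above both Kaede-green libraries and 1 below. *Lag3* was at 224, 199.5 and 465 CPM, log2 ratios of 1.05 and 1.22 to Kaede-green 1 and Kaede-green 2, with an exact 95% Poisson interval of 446 to 485 in Kaede-red. *Il10*, at 75.6, 85.3 and 144 CPM, and *Klrg1*, at 182, 219 and 337, lay above both by less than 2-fold. Thinned to 2000 UMIs per cell, *Il10* was found in 11.7% (8.38 to 15.8), 13.5% (10.7 to 16.8) and 22.7% (19.2 to 26.5) of regulatory T cells, against 27.8%, 28.8% and 39.5% before thinning. In the NK gate the thinned shares were 0.0710%, 0.511% and 0.0864%. *Icos*, at 1036, 992 and 1655 CPM, and *Gzmb*, at 2706, 2456 and 3961, were also above both, and *Penk*, at 240.2, 256 and 157, was below both, without a call.

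Called above were *Il7r*, the IL-7 receptor chain, at 165, 175 and 359 CPM (1.12 and 1.03), *Socs2*, an inhibitor of cytokine signaling, at 53.4, 57 and 136 (1.35 and 1.26), *Gzmf* at 3.44, 12.9 and 56.6, *Tbc1d4* at 11.4, 4.61 and 44.6 and *Tnf* at 13, 12.9 and 30.1. In CD8 T cells of the same libraries *Gzmf* was far higher and differed in the same direction, at 597, 579 and 3902 CPM, and the part of stray transcripts in its level in regulatory T cells was not tested. Several other calls ended when 1 cell was left out. The cell with the most UMIs of a gene, its top cell, held 16.4% of all UMIs for *Tnf* and 19.5% for *Tbc1d4*, and without that cell Kaede-red stood at 20.6 CPM for *Tnf*, less than 2-fold from both Kaede-green libraries, and at 33.1 for *Tbc1d4*, which kept its call. The chemokine gene *Ccl9* (6.34, 3.69 and 33.3 CPM), with 31.4% of its UMIs in 1 cell, also kept its call. *Il17a* (9.78, 7.83 and 27.8), with 28.9%, did not, and it turned below when members needed 2 *Foxp3* UMIs. Also by size, *Flrt3*, *Cd63*, *Grk3*, *Tmem14a*, *Il4i1*, *Ankrd33b* and *Cd209d* were above, and of these *Tmem14a* alone was still called without its top cell. The top cell of each held 80.0% of the UMIs of *Cd209d*, 45.6% of *Cd63*, 43.8% of *Flrt3*, 36.6% of *Grk3*, 27.8% of *Ankrd33b* and 25.5% of *Il4i1*. *Flrt3*, *Grk3*, *Ankrd33b* and *Cd209d* then had fewer than the 30 UMIs that a call needed. The log2 ratios of *Flrt3* without that cell, 2.42 and 5.53, remained past the 2-fold limit. The smaller of them was below the 3.10 between the Kaede-green libraries, which a call also had to exceed. *Cd63*, at 5.55, 2.30 and 24.1 CPM, fell to 9.67 in Kaede-red without it. Over all genes, leaving out the top cell of each gene, an alternative chosen after seeing the data, kept 41 of the 72 genes above and 91 of the 138 below.

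Called below were *Ccr7* at 216, 245 and 95 CPM (-1.19 and -1.37, interval 86.4 to 104 in Kaede-red) and *S1pr1* at 58.4, 58.4 and 26.9 (-1.12 and -1.11), receptors for entry into lymph nodes and for exit from tissue. Their list, of naive and recirculating T cells, did not move as a group. Of 10 genes, 2 were above both Kaede-green libraries and 4 below (all genes, 45.8% and 31.3%), with a median of -0.05. *Il7r*, called above, belongs to the same list. *Myc* was at 32.5, 21.4 and 8.54 CPM and *Hspd1*, a mitochondrial chaperone, at 192, 219 and 93.3. Without its top cell, which was in Kaede-green 1, *Hspd1* was at 175, 219 and 93.4 CPM, and its log2 ratios of -0.90 and -1.23 no longer met the 2-fold rule. *Shmt1*, an enzyme of one-carbon metabolism (15.6, 12.4 and 3.20), *Btla*, an inhibitory receptor (10.8, 9.22 and 4.48), and *Eomes*, a T-box factor (7.93, 6.91 and 1.71), were below as well. The remaining genes below by size, *Actg2*, *Nefh*, *H2-DMb2*, *Syp*, *Pusl1*, *Srp54c*, *Recql4* and *Fam43a*, reached at most 9.78 CPM in any library, and *Syp* and *Recql4*, left with fewer than 30 UMIs, were not called without their top cells. With cells holding *Mki67* or *Top2a* left out, *Ccl9* above and *S1pr1*, *Btla*, *Eomes* and *Actg2* below kept their calls among the 30 genes named here as called above or below, and 25 lost them, 12 of these with fewer than 30 UMIs left. The log2 ratios were then 0.97 and 0.74 for *Il7r*, 0.91 and 1.05 for *Lag3*, and -0.86 and -1.46 for *Ccr7*. With cells thinned to 2000 UMIs, 32 genes were above and 50 below, of which 5 and 10 were among the 72 and 138. Thinning left 62 of the 72 and 110 of the 138 with fewer than the 30 UMIs that a call needed. Of the 10 and 28 with enough UMIs, 5 and 10 were called. Among the 30 named genes 25 lost their calls, 19 of these with fewer than 30 UMIs, and *Ccr7*, *S1pr1*, *Gzmf*, *Socs2* and *Il17a* kept theirs. *Lag3* (log2 ratios 0.70 and 0.89) and *Il7r* (0.86 and 0.64) lost theirs with enough UMIs, as did *Tnf*, *Myc*, *Hspd1* and *Ccl9*. After thinning, 61 of the 72 and 122 of the 138 stayed on the same side of both Kaede-green libraries, and with no minimum of UMIs 19 and 52 met the 2-fold rule.

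All 19 cell-cycle genes of regulatory T cells were below both Kaede-green libraries in Kaede-red, with a median log2 ratio of -0.66 and none at the 2-fold rule, where 31.3% of all genes were below both. *Mki67* was at 126, 125 and 73.2 CPM and *Birc5*, encoding survivin, at 116, 118 and 63.8. The share of regulatory T cells with a UMI of *Mki67* or *Top2a* was 35.4% (30.2 to 41.0), 44.2% (39.9 to 48.7) and 31.1% (27.2 to 35.2), and the Kaede-red cells were also the shallowest, at a median of 6678 UMIs. After thinning to 2000 UMIs, 16 of the 19 genes were below both, and a *Mki67* UMI was found in 12.3%, 8.75% and 4.84% of cells. Heat shock and chaperone genes, which tissue handling can induce, moved in the same direction, with 8 of 9 below both, 1 above and a median of -0.79, or 6 of 9 and -0.25 with cells holding *Mki67* or *Top2a* left out. Of the B cell genes 4 of 4 tested, and of the NK genes 4 of 5, were below both as well. The part of handling or of such cells in the difference was not tested.

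CD8 T cells of the same libraries went the other way: 18 of the 19 cell-cycle genes were above both Kaede-green libraries in Kaede-red, with a median of 0.90, and the cells with a UMI of *Mki67* or *Top2a* made up 24.3%, 40.3% and 47.9%, at median depths of 8686, 10091 and 13681 UMIs. Over all genes, 39.1% were above both and 38.9% below both in CD8 T cells. Markers of other lineages moved in CD8 T cells as well, with 6 of 6 B cell genes and 6 of 7 myeloid genes below both. All 4 mast cell genes tested were above both, and of 5 NK genes 2 were above and 3 below. The part of such cells was not tested. In *Foxp3*-zero CD4 T cells 3 cell-cycle genes were above and 6 below (41.4% and 33.3% of all genes). The difference between cell types was not tested, and depth moved in the same direction as the cell-cycle genes in both types. Glycolysis and hypoxia genes also divided, with 5 above and 11 below of 22 in regulatory T cells against 20 above and 1 below in CD8 T cells. Of 16 interferon-stimulated genes, 11 were above in regulatory T cells and 15 below in CD8 T cells. Suppression genes, in turn, were above in all 13 tested in the *Foxp3*-zero CD4 T cells, 6 of them by the 2-fold rule, where 1.57% of all genes were called above in those cells.

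**Figure D4:**
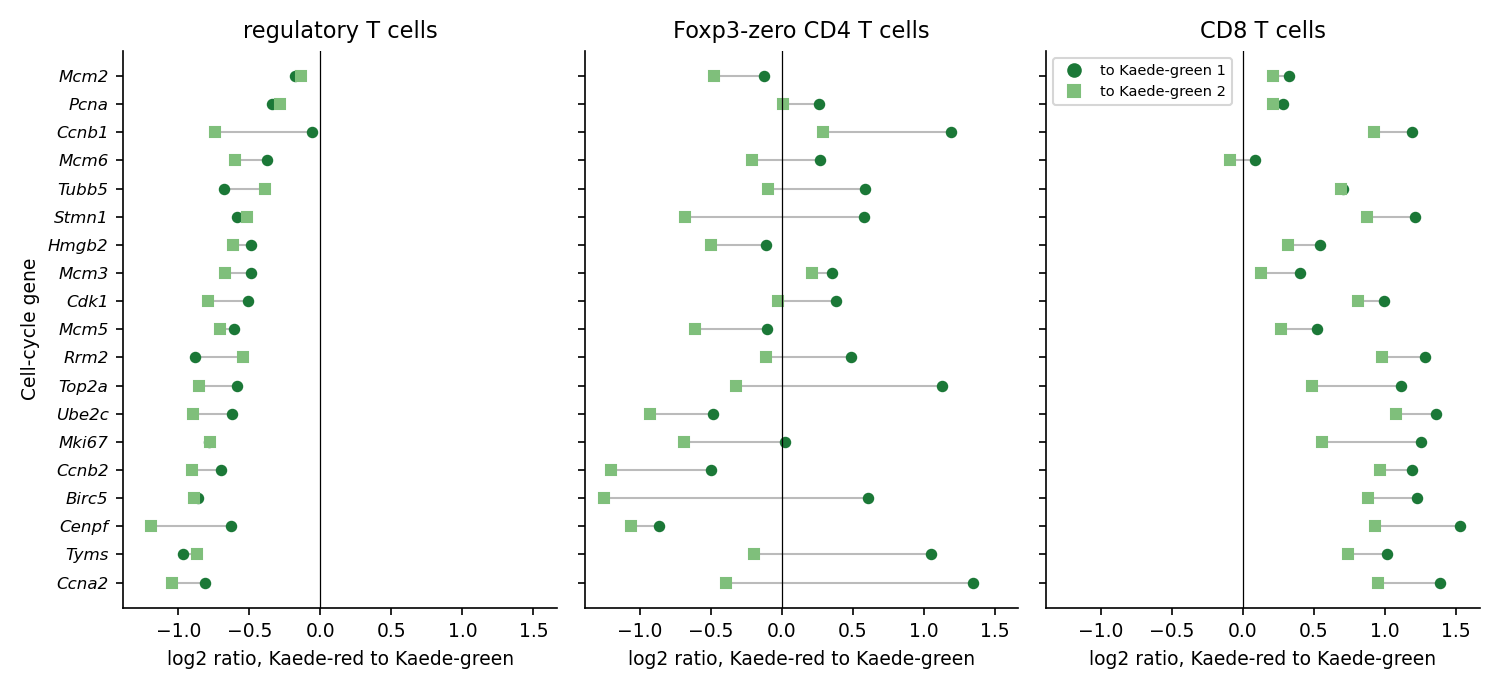
Log2 ratio of Kaede-red to each Kaede-green library for 19 cell-cycle genes in regulatory T cells, *Foxp3*-zero CD4 T cells and CD8 T cells; each symbol is the ratio to 1 Kaede-green library, with no test since there is 1 Kaede-red library. All 19 genes lay below 0 in regulatory T cells, and 18 lay above 0 for both libraries in CD8 T cells.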

How the data were processed

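Single-cell 3' RNA libraries were made from sorted TILs, and the authors deposited raw UMI counts per gene and cell for each of the 3 libraries, unnormalized, from Cell Ranger. The labels give version 6.1.2 and build mm10, and the matrix headers give 6.0.1. No column was left without a sample.

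The regulatory T cells and the gene lists were chosen with earlier results of these data known. Cells of between 1000 and 6000 detected genes and a mitochondrial share below 7.5% were gated on raw counts, and no doublet call was used to remove cells. Counts were summed per library and gate, giving 6 sums per comparison, and tested two-sided with edgeR 4.0.16 (R 4.3.3; quasi-likelihood F-test, TMM factors, filterByExpr, library as a block, Benjamini-Hochberg adjusted p under 0.05). The library pairs the sums because both gates of a pair come from the same library. The labels call the Kaede-green libraries biological replicates, and p-values reflect only how the difference between gates varied over the 3 libraries. Kaede-red was compared with each Kaede-green library as the log2 ratio of CPM after adding 0.5 UMI, with no test.

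The text names genes of the lists and, per comparison, the 10 largest log2 fold changes each way with an adjusted p under 0.05, 1 direction in all 3 libraries and at least 20 CPM in the higher gate, or for color the 10 called genes with the largest smaller ratio; genes of a gate and unnamed models were left out. A list is described by its counts and median, with no test of its own. Intervals are exact (Clopper-Pearson for shares, Poisson for levels; scipy 1.17.1) and cover counting error only. Gene positions are from GENCODE vM21 (GRCm38), in which 32158 of 32285 genes (99.6%) were matched. Promoter windows are from RefSeq on GRCm38.p6. Alternatives were DESeq2 1.42.0, RLE size factors, no block, no low-count filter, each library left out, the top cell of each gene left out (color), cells thinned to 2000 UMIs, stricter gates, and leaving out cells with other-lineage UMIs, with Mki67 or Top2a, or in the top 5% of Scrublet scores (scanpy 1.11.5). A planned comparison within the regulatory T cells and some genes of the lists are not reported here. The fits were tested on simulated counts.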

Additional observations from a re-analysis of the deposited data

Results flagged for a closer look

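In some genes named here, regulatory T cells and *Foxp3*-zero CD4 T cells differed with one sign in Kaede-red and the other in both Kaede-green libraries. This was not tested. Among genes named for color, *Ccl9* did so, at 6.34, 3.69 and 33.3 CPM against 3.90, 0.441 and 44.9, as did *Pusl1*, *Nefh* and *H2-DMb2*. For *Pusl1*, *Nefh* and *H2-DMb2* the Kaede-red sign rested on very few UMIs, with 4, 2 and 2 in regulatory T cells. The log2 ratio of *Penk* was -1.64 in Kaede-red against 0.96 and 1.03 in Kaede-green 1 and 2, and that of *Il7r* was 0.30 against -1.10 and -0.69. In *Il1r2* and *Id2* the Kaede-red ratio was close to 0, at -0.00598 against 3.27 and 1.82 and at -0.0137 against 1.00 and 0.74.

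Between Kaede-red and Kaede-green, some named genes moved one way in regulatory T cells and the other way in CD8 T cells, also not tested. Among them were *Cd63*, above in regulatory T cells with CD8 ratios of -0.47 and -0.74, and *Shmt1*, below with 0.23 and 0.26. A further 9 are given here. The smaller of the 2 log2 ratios in regulatory T cells was -0.78 for *Mki67*, -0.86 for *Birc5* and -1.89 for *Recql4*, against positive ratios in CD8 T cells (1.25 and 0.56 for *Mki67*). It was 0.75 for *Il10* and 0.62 for *Klrg1*, against negative ratios in CD8 T cells, where both genes were low. It was 1.96 for *Tbc1d4*, 2.37 for *Ccl9*, 2.07 for *Cd209d* and 2.06 for *Grk3*, and 1 Kaede-red cell held 19.5%, 31.4%, 80.0% and 36.6% of their UMIs in this order.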

How the results depend on the processing

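In the pairing of gates by library, the fit with no replicate block called 634 genes higher against *Foxp3*-zero CD4 T cells, where the block gave 1042. DESeq2 called 509 genes higher and 595 lower against *Foxp3*-zero CD4 T cells. Cells thinned to 2000 UMIs gave 516 and 623, and for color 32 above and 50 below. With cells holding *Mki67* or *Top2a* left out, color gave 28 and 62, of which 5 and 19 were among the 72 and 138 genes. With no minimum of 30 UMIs, color gave 1053 above and 640 below.

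Leaving out 1 library gave 517 to 1571 genes higher and 542 to 1572 lower against *Foxp3*-zero CD4 T cells, 749 to 2192 and 501 to 1986 against CD8 T cells, and 282 to 311 above and 256 to 282 below for color. Fits with 1 library fewer rest on fewer sums, and otherwise the cause was not tested. For color there was no fit. With 1 Kaede-green library left out the rule had fewer conditions to meet, so its counts could only rise, and all 72 and 138 genes were kept. Shares of regulatory T cells with at least 2 *Foxp3* UMIs were 5.36%, 6.63% and 6.32%, and after thinning before the gate 4.53%, 6.09% and 6.27%.

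Of the named genes, *Il2rb* and *Penk* changed sign against *Foxp3*-zero CD4 T cells without having been called. *Il2rb* was 0.0343 with no low-count filter, 0.0262 thinned, 0.0260 without other-lineage cells, 0.0313 without top Scrublet scores, 0.0751 without cycling cells, 0.0139 with members holding *Cd4* and no *Cd8a*, 0.0715 against cells without *Ikzf2*, and -0.0622 to 0.0156 with 1 library left out. *Penk* was -0.18 with no replicate block, -0.43 to 0.93 with 1 library left out, -0.13 without other-lineage cells, -0.48 without cycling cells and -0.0902 with members holding *Cd4* and no *Cd8a*. Against CD8 T cells *Mki67* was -0.11 to 0.88 with 1 library left out. For color the mean log2 ratio of *Il17a* was -2.24 with 2 *Foxp3* UMIs required and -1.53 without other-lineage cells, that of *Cd209d* -1.48 without top Scrublet scores and -2.80 without its top cell, and that of *Grk3* -0.43 thinned. Calls of named genes against *Foxp3*-zero CD4 T cells were lost with DESeq2 for *Bcl6*, *Ccr8*, *Cd74*, *Ikzf1*, *Ikzf5*, *Il1r2*, *Jak3*, *Lag3*, *Nt5e* and *Traf1*. With no replicate block they were lost for *Bcl6*, *Ccr1*, *Ccr8*, *Icos*, *Id2*, *Ifi27l2a*, *Ikzf1*, *Ikzf5*, *Il1r2*, *Lag3*, *Myc*, *Tnfrsf1b* and *Traf1*. Thinning ended those of *Ccr8*, *Cdk1*, *Ikzf1*, *Ikzf5*, *Il17a*, *Jak3* and *Nt5e*, and leaving out cycling cells those of *Bcl6*, *Ccr8*, *Cxcr3*, *Ikzf5*, *Il17a*, *Il1r2*, *Jak3* and *Nt5e*. Leaving out other-lineage cells or top Scrublet scores ended the call of *Jak3*, comparison with cells without *Ikzf2* those of *Ikzf5* and *Nt5e*, and no low-count filter or members holding *Cd4* and no *Cd8a* that of *Ikzf5*. Against CD8 T cells the calls lost were *Lag3*, thinned and with no replicate block, and *Il17a* with 2 *Foxp3* UMIs required. Of the single-gene values under alternatives, 1233 kept direction and side of the threshold, 64 no longer passed and 10 newly passed against *Foxp3*-zero CD4 T cells, and 468, 7 and 3 did so against CD8 T cells. For color, 299 of the mean log2 ratios moved by less than the spread between the Kaede-green libraries, 125 moved by more and 5 changed sign. The 299 include settings in which no ratio could move by more. These were each Kaede-green library left out and no minimum of UMIs, with all 39 ratios counted as unmoved in each. The alternatives against cells without *Ikzf2* and without a gene's top cell were chosen after seeing the data.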
